A study of Mus musculus with 6 samples.

Results

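This account concerns 6 genes out of 15944 measured: S100a4, S100a6, S100a10, S100a11 and S100a13, which encode S100 calcium-binding proteins, and Crip1, which encodes a cysteine-rich protein with a LIM domain. They were found by gene symbol, and all 6 were present. They had been picked because earlier results from these same libraries showed them higher in one of the cell groups, so their differences between the groups are given as a description and not as a test. Bulk RNA-seq was made on Tregs (regulatory T cells, the Foxp3-expressing branch of CD4+ T cells that holds immune responses in check) taken from spleens of the C57BL/6 strain, which the study calls naive. Both groups carried fluorescent reporters, RFP for Foxp3 and GFP for the transcription factor RORγt, and both were sorted as CD3+ CD4+ and Foxp3-RFP+. The first group (RORγt+ Tregs, 3 libraries) was positive for RORγt-GFP with no gate on CCR6. The second (CCR6+ RORγt- Tregs, 3 libraries) was negative for RORγt-GFP and carried the chemokine receptor CCR6 on its surface. The labels give no age and name no animal for a library. The p-values therefore rest on the scatter of these 6 libraries alone, and that scatter may be technical.

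S100 proteins are small proteins built around a pair of EF-hand motifs, loops that bind calcium. They usually act as dimers: when calcium rises inside a cell, the dimer opens and grips a partner protein, often an annexin or a part of the actomyosin skeleton. S100a4 is known for binding non-muscle myosin and for cell motility, S100a6 (calcyclin) for binding annexins and Cacybp, and S100a11 for binding annexins at membranes. S100a10 is the exception in the family, since it no longer needs calcium and sits in a standing complex with annexin A2. S100a13 is known for helping proteins that lack a secretion signal to leave the cell. Crip1 is not an S100 protein but binds zinc. S100a4, S100a6 and Crip1 are commonly among the genes transcribed more in effector and memory T cells than in naive ones.

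The stretch just upstream of the start of transcription was read for the members, since they stood higher together. Sequences of the 250 bases before the start were taken from RefSeq (GRCm38.p6) for S100a4, S100a6, S100a11, S100a13 and Crip1. Shown are those of the 3 members with the largest differences (S100a4, S100a6 and Crip1) and, for contrast, that of S100a11, all 5′ to 3′ on the plus strand, with capitals marking the motif matches named after them. The S100a4 stretch is chr3:90603520-90603769 and lies within the overlapping gene model Gm42674, outside its exons. The S100a6 stretch is chr3:90612644-90612893, with its last bases in an exon of the GENCODE model. The S100a11 stretch is chr3:93520246-93520495, whose last bases are likewise in its own exon. The Crip1 stretch is chr12:113151762-113152011 and lies inside the GENCODE gene model of Crip1, outside its exons, since the RefSeq start is downstream of the GENCODE start.
S100a4: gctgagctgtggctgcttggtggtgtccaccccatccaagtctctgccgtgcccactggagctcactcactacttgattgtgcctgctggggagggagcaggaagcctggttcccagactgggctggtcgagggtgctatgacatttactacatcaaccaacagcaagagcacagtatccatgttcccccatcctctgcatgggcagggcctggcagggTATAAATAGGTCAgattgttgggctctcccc
S100a6: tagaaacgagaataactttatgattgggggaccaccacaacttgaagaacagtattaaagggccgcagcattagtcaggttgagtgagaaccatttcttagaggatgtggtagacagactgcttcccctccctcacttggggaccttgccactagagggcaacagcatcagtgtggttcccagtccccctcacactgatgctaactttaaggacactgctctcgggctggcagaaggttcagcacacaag
S100a11: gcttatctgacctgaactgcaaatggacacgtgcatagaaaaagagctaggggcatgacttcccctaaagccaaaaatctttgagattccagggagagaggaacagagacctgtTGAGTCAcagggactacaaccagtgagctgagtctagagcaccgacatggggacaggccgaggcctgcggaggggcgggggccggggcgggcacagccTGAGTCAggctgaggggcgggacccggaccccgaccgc
Crip1: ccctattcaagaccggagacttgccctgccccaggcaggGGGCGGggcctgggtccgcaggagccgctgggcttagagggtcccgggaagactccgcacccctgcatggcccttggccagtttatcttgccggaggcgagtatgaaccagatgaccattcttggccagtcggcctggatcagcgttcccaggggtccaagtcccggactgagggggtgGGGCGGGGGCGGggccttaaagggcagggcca

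In the S100a4 promoter the capitals mark a TATA box (TATAAA, 31 to 26 bases before the start) that runs into a match to the response element of ROR nuclear receptors (28 to 19 bases before the start), with the last 3 bases of the one shared with the other. The element was searched as the core AGGTCA with a T directly before it and an A 3 bases before that T. On both strands it occurs in 200 of 32851 promoters of the same length (0.609%), and among the 5 members searched only in that of S100a4. TATAAA occurs in 12.4% of the promoters and, of the members, also only in S100a4. The capitals in the S100a11 promoter mark the AP-1 motif TGANTCA, found there at 2 places and in 6.75% of all promoters. In the Crip1 promoter they mark 3 matches to the GC box GGGCGG, which occurs in 32.7% of all promoters and also, not in capitals, in S100a11. The S100a6 promoter held none of the 7 motifs searched, which also included AGGTCA alone (4607 promoters, with S100a4 and S100a11 among them), CACGTG (6.02%, with S100a11 among them) and TTCNNNGAA (7.02%, no member). The motifs were chosen after the S100a4 promoter had been read, and a match describes letters, not binding.

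Values are the authors' deposited normalized counts, which from the values alone are taken as read counts divided by a factor per library. They summed to 11325902 to 11890770 per library, and the spacing of low values gave an approximate depth of 9210000 to 14500000 reads. Each member value rested on about 351 to 4696 reads. Foxp3 was high in every library, at 9790 to 12609 normalized counts. RORγt+ replicate 3 stood apart from the rest: its correlation with each other library, over genes and in log2 values, was 0.932 to 0.939, where the other 5 correlated at 0.947 to 0.967 with each other, and 1247 genes were listed at 0 in it, against 438 to 638 elsewhere.

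All 6 members were higher in every RORγt+ library than in any RORγt- library. Non-overlap in that direction held for 8.31% of all genes, and the members were picked for it. Summed over the 6 genes, they took 0.116%, 0.128% and 0.147% of the normalized counts in RORγt+ replicates 1 to 3, and 0.0618%, 0.0706% and 0.0578% in the RORγt- replicates. The single genes ranged from a 5.84-fold difference of means in S100a4 to 1.38-fold in S100a13. In bulk RNA, more cells that transcribe a gene and more transcript per cell cannot be told apart.

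**Figure D1:**
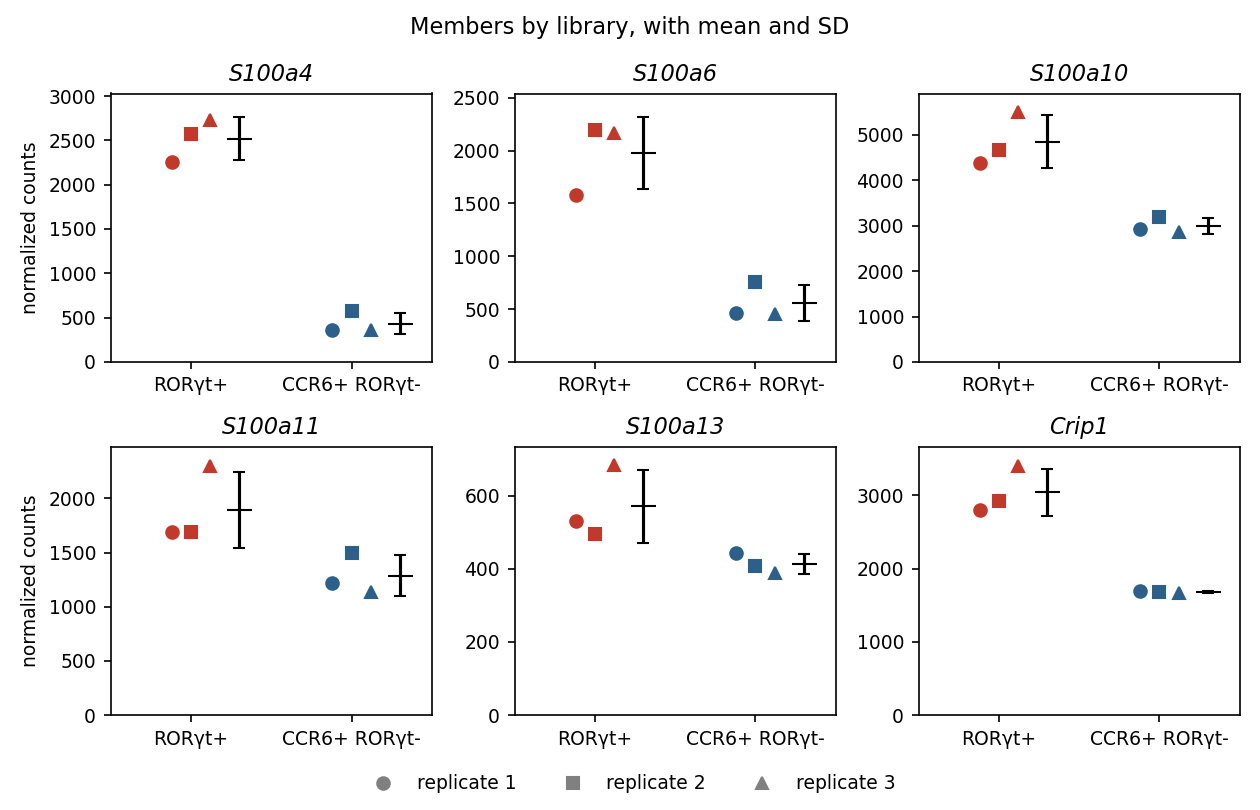
Normalized counts of the 6 members by library: red points are RORγt+ Tregs, blue points CCR6+ RORγt- Tregs, marker shapes give the replicate number, and black bars give mean and SD (n = 3). The groups are far apart for S100a4 and S100a6, and nearly touch for S100a11 and S100a13.

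S100a4 (chromosome 3, 90603771 to 90606045, plus strand, GRCm38), the myosin-binding member, showed the largest difference. It stood at 2253, 2569 and 2732 normalized counts in RORγt+ replicates 1 to 3 and at 360, 569 and 364 in RORγt- replicates 1 to 3. Even the lowest RORγt+ library was 3.96-fold above the highest RORγt- library, which was replicate 2. Its log2 fold change, RORγt+ minus RORγt- on the log2(value + 1) scale, was 2.57 ± 0.20 (SE, n = 3 per group). Of the 31-base windows of its transcript, 49.2% also occur in the overlapping gene Gm42674, which was listed at 0 to 21.2 normalized counts, so the division of reads between these genes is uncertain.

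S100a6 (chromosome 3, 90612882 to 90624181), the calcyclin gene a few kilobases downstream, came next. Its values were 1583, 2192 and 2164 normalized counts in the RORγt+ libraries and 461, 760 and 456 in the RORγt- libraries. Replicate 2 was again the high library among the RORγt- libraries, and replicate 1 the low one among the RORγt+ libraries. The lowest RORγt+ value was 2.08-fold above the highest RORγt- value, and the log2 fold change was 1.85 ± 0.24 (SE). S100a6 varied more between libraries of a group than S100a10, with coefficients of variation of 17.4% in RORγt+ and 31.1% in RORγt- libraries.

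S100a10 (chromosome 3, 93555080 to 93564643), the annexin A2 partner, was the most abundant member. It reached 4386, 4672 and 5496 normalized counts in RORγt+ libraries and 2931, 3191 and 2856 in RORγt- libraries. The groups were separated by 1196 normalized counts, about as much as the spread among the RORγt+ libraries, and the log2 fold change was 0.69 ± 0.13 (SE). S100a11 (chromosome 3, 93520488 to 93526287), which lies nearby, stood at 1694, 1693 and 2298 against 1222, 1498 and 1139 normalized counts. RORγt+ replicate 3 was well above the other RORγt+ libraries here, and the lowest RORγt+ value was only 1.13-fold above the highest RORγt- value. The log2 fold change of S100a11 was 0.55 ± 0.17 (SE). Of its 31-base windows, 48.9% also occur in other gene models, mostly Gm12854 (47.0%) and Gm7665 (33.1%), whose values were not analysed here, so its count is uncertain in the same way as that of S100a4.

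S100a13 (chromosome 3, 90514435 to 90524581), the member linked to export of proteins without a signal sequence, was the least abundant and differed least. Its values were 532, 496 and 684 normalized counts in RORγt+ libraries and 444, 408 and 390 in RORγt- libraries. Only 52.4 normalized counts separated the lowest RORγt+ library from the highest RORγt- library, and the log2 fold change was 0.45 ± 0.17 (SE). Crip1 (chromosome 12, 113146316 to 113153879), the zinc-binding LIM protein, was at 2794, 2920 and 3400 normalized counts in RORγt+ libraries. In the RORγt- libraries it was at 1694, 1678 and 1668, the most even values of any member, with a coefficient of variation of 0.779%. Its log2 fold change was 0.85 ± 0.12 (SE).

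In limma's fit over all genes, 3 of the 6 members (S100a4, S100a6 and Crip1) passed a Benjamini-Hochberg adjusted p of 0.05. That rule called 0.564% of all genes, 0.32% as higher and 0.245% as lower in RORγt+ Tregs, while an unadjusted p under 0.05 was reached by 10.9%. The members were chosen on this contrast, so nothing is read from the count. Without RORγt+ replicate 3, S100a10 was called as well (4 members). The count was 0 without RORγt+ replicate 1, RORγt+ replicate 2, RORγt- replicate 1 or RORγt- replicate 3, and 1 (S100a4) without RORγt- replicate 2. The fold changes themselves moved little in those fits, between 2.46 and 2.79 for S100a4, 1.72 and 2.09 for S100a6, and 0.765 and 0.907 for Crip1 (log2). The median log2 fold change of the 6 was 0.77, against -0.011 over all genes.

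Levels can be compared between genes only per length, here per kilobase of the median transcript of each gene in GENCODE's basic set (498 to 715 bases). On that scale the order in RORγt+ Tregs was S100a10 (8350 ± 992 normalized counts per kilobase, SD, n = 3), Crip1 (5968 ± 628), S100a4 (5057 ± 489), S100a11 (3708 ± 683), S100a6 (3314 ± 575) and S100a13 (798 ± 139). S100a11 and S100a6 overlapped between libraries, and the lowest Crip1 value (5489) hardly exceeded the highest S100a4 value (5486). In RORγt- Tregs S100a10 (5151 ± 303), Crip1 (3301 ± 25.7) and S100a11 (2518 ± 368) led, followed by S100a6 (936 ± 291) and S100a4 (866 ± 240), which overlapped, and S100a13 (579 ± 38.3). Per length, S100a4 thus stood above S100a11 and S100a6 in RORγt+ Tregs and below S100a11 in RORγt- Tregs.

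Ratios of members within a library do not depend on how libraries were scaled, provided that all genes of a library share a single factor, as assumed here. The ratio of S100a4 to S100a6 was 1.42, 1.17 and 1.26 in RORγt+ libraries and 0.781, 0.749 and 0.797 in RORγt- libraries, so the more abundant of these neighbours by count was S100a4 in the first group and S100a6 in the second. S100a4 to S100a10 stood at 0.514, 0.55 and 0.497 against 0.123, 0.178 and 0.127. Of the counts of the 5 S100 genes, S100a4 held 20.4% to 22.1% in RORγt+ libraries and 6.65% to 8.86% in RORγt- libraries, while the share of S100a10 was 40.2% to 42.0% against 49.7% to 54.9%. The other ratios differed less. S100a10 to S100a13 was 8.04 to 9.42 against 6.61 to 7.83, without overlap. Crip1 to S100a10 was 0.619 to 0.637 against 0.526 to 0.584, also without overlap, while S100a10 to S100a11 (2.39 to 2.76 against 2.13 to 2.51) and S100a11 to S100a13 (3.18 to 3.41 against 2.76 to 3.68) overlapped between the groups.

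**Figure D2:**
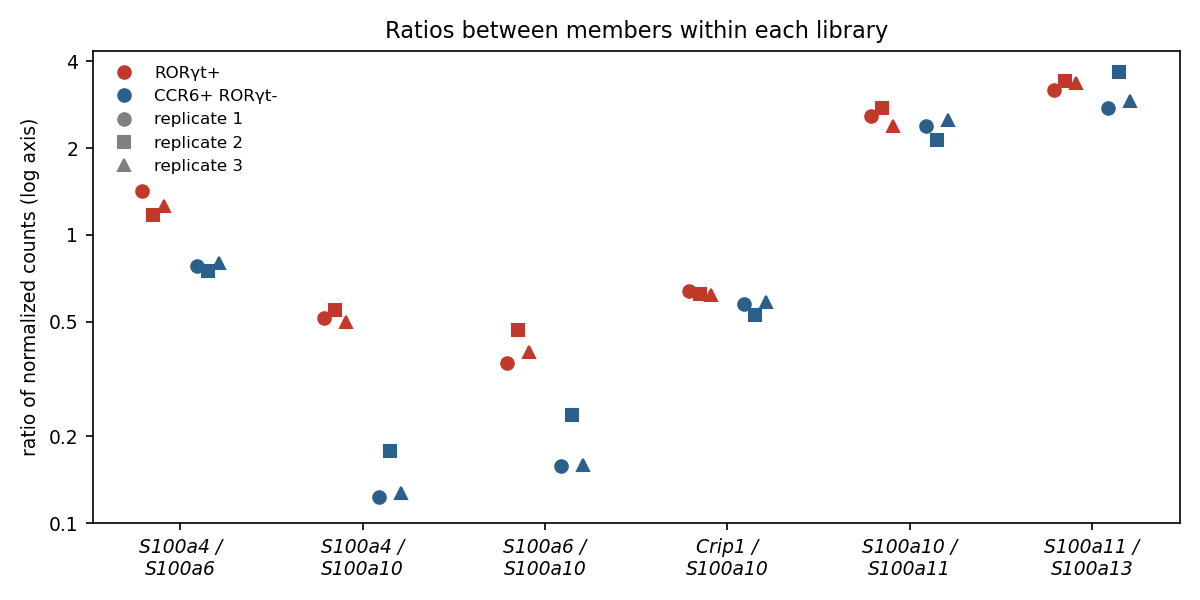
Ratios of normalized counts between members within each library, on a log axis, for RORγt+ (red) and CCR6+ RORγt- (blue) Tregs, with marker shapes for replicates. Ratios that involve S100a4 or S100a6 with S100a10 are shifted between the groups, from 0.497 to 0.55 down to 0.123 to 0.178 for S100a4 to S100a10, while S100a10 to S100a11 and S100a11 to S100a13 overlap.

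The order of the libraries within a group was often shared. RORγt+ replicate 3 was the highest RORγt+ library in 5 of the 6 members, all except S100a6, and it was the highest RORγt+ library in 45.5% of the 10333 genes with a mean of at least 50 normalized counts. RORγt- replicate 2 was the highest RORγt- library in 4 of the 6, S100a4, S100a6, S100a10 and S100a11, and in 30.1% of those genes. As a measure of likeness, the root-mean-square difference of the mean-centred log2 profiles over the 6 libraries was smallest between S100a10 and Crip1 (0.0929), then between S100a10 and S100a11 (0.116), and was 0.372 between S100a4 and S100a6. S100a4 and S100a13 were the least alike (1.09).

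Among the 10327 other genes with a mean of at least 50, the profile nearest to that of S100a4 was that of Ccr6, which encodes the receptor used in the sort, at a root-mean-square difference of 0.205 on the log2 scale. Ccr6 stood at 698, 815 and 900 normalized counts in RORγt+ libraries and 112, 142 and 148 in RORγt- libraries, so its transcript was lower in the group that was sorted on the receptor. The next were Tubb2b, a tubulin (0.293), and Tmprss13, a membrane serine protease (0.312). S100a6 was nearest to Lmna, which encodes nuclear lamins A and C (0.146), Tmprss13 (0.148) and Cyp2s1 (0.148). The nearest to Crip1 were Itgb3, an integrin subunit (0.036), Slc66a2 (0.0665) and Carhsp1 (0.0793). For S100a10 they were Arl5c (0.0483), Rhbdf2 (0.0671) and Sytl1 (0.0674), for S100a11 the copper chaperone Atox1 (0.03), Mrpl20 (0.0327) and Atp5md (0.0666), and for S100a13 Eno1b (0.0268), Aspscr1 (0.0355) and the galactosyltransferase B4galt1 (0.0365). These profiles span 6 libraries and include the group difference for which the members were chosen.

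Ccr6 also shared the promoter element found in S100a4. Measured rows were matched to RefSeq promoters by gene symbol. Of 50 rows whose promoter holds the element on either strand (2 of them carry the symbol Pakap), limma called 3 higher in RORγt+ Tregs (Ccr6, Il23r and S100a4) and 1 lower (Hdac9). That was 8.0%, against 0.675% of the 10370 rows with a RefSeq promoter. Without S100a4, which was chosen for its difference, the count was 3 of 49 (6.12%). The median log2 fold change of the 50 rows was -0.034, against 0.0151 over the 10370. The counts depended on single libraries: 0 were called without RORγt+ replicate 2, 1 (Ccr6) without RORγt+ replicate 1, RORγt- replicate 1 or RORγt- replicate 3, 2 (Ccr6 and S100a4) without RORγt- replicate 2 and 3 (all but Il23r) without RORγt+ replicate 3. The element was chosen after the S100a4 promoter had been read and with earlier results of these data known. The receptor encoded by Ccr6 was gated in the RORγt- group only. No test was made of these counts, and nothing is read from them about the element. The matches are shown 5′ to 3′ on the strand that reads AGGTCA, with the element in capitals and 10 bases on each side: chr3:90603732-90603761 for S100a4 (plus strand), chr17:8235989-8236018 for Ccr6 (minus strand, opposite to the gene), chr6:67491906-67491935 for Il23r (minus strand, as the gene) and chr12:34528990-34529019 for Hdac9 (plus strand, opposite to the gene).
S100a4: ggcagggtatAAATAGGTCAgattgttggg
Ccr6: gcacttatgtAACTAGGTCAatgatttcac
Il23r: agaaatgaaaATGTAGGTCAgggctctgct
Hdac9: cctgagccaaAAATAGGTCAagcatggccg

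Il23r, which encodes a subunit of the IL-23 receptor, stood at 15.6, 13.9 and 18.8 normalized counts in RORγt+ libraries and 0, 0 and 0.83 in RORγt- libraries (limma adjusted p = 0.0361). Hdac9, a histone deacetylase, stood at 35.2, 37.4 and 22.0 against 141, 178 and 165 (adjusted p = 0.0219). The match shown for Hdac9 lies inside its own GENCODE gene model, outside the exons. Hdac9 and Ccr6 each have 2 RefSeq promoters, with the match in only 1 of them, while S100a4 and Il23r have 1.

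The 5 S100 members lie in 2 stretches of chromosome 3. S100a13, S100a4 and S100a6 sit in the main S100 cluster. Within 200 kilobases of the start of S100a4 there were 11 other measured genes, of which limma called 0 and 0 had an unadjusted p under 0.05. The 4 of them with a mean of at least 50 normalized counts, Ints3, Ilf2, Snapin and Chtop, had log2 fold changes between -0.061 and 0.039. Other S100 genes there were low: S100a1, which starts beside S100a13, averaged 10.9 ± 4.57 against 5.78 ± 2.12 normalized counts (SD, n = 3, limma adjusted p = 0.659), and S100a2, chosen after its values were known, 6.88 ± 6.21 against 0.373 ± 0.329 (adjusted p = 0.604). Around S100a10 and S100a11, the other measured genes within 200 kilobases were Tchh, at 4.49 against 2.57 normalized counts, and Gm5541, which was lower in RORγt+ Tregs (10.5 against 71.5, adjusted p = 0.0481). Around Crip1 on chromosome 12, 4 of 10 other genes had a mean of at least 50, with log2 fold changes of -0.037 to 0.189. Its relative Crip2, which lies next to it, stood at 31.8, 36.6 and 82.3 against 15.7, 27.7 and 29.3 normalized counts, without overlap but also without passing (adjusted p = 0.534).

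**Figure D3:**
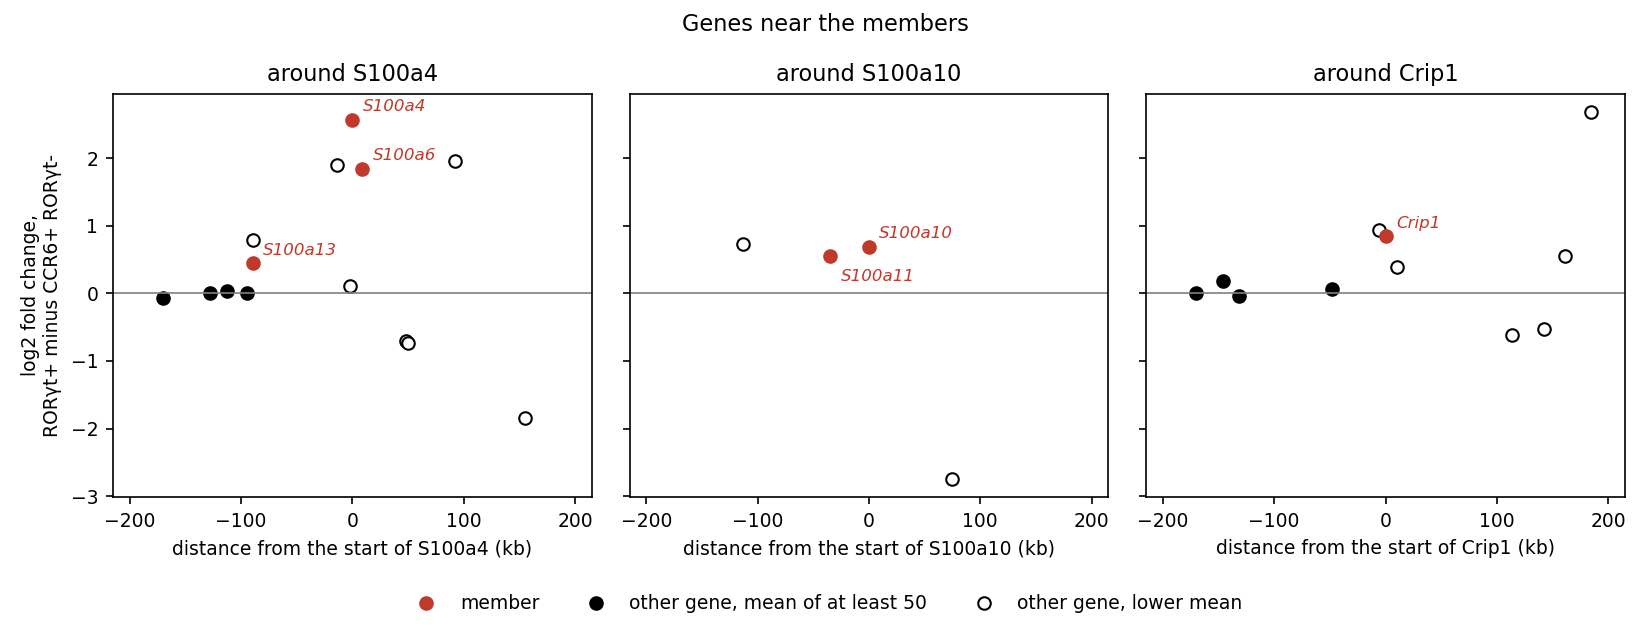
Log2 fold change (RORγt+ minus CCR6+ RORγt-) of measured genes by the distance of their start, in kilobases, from the start of S100a4, S100a10 and Crip1, with members in red, other genes with a mean of at least 50 normalized counts in black and lower ones as open circles. The black points, 4 around S100a4 and 4 around Crip1, lie between -0.061 and 0.189, below every member, and the open circles scatter on both sides of 0.

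Of 16 other genes of the S100, CRIP and CSRP families listed, 6 were measured, and limma called 0 of them (0 also at an unadjusted p under 0.05). Csrp1, a LIM protein of muscle and other cells, was the only abundant one, at 934 ± 116 against 865 ± 33.7 normalized counts (SD, n = 3), a log2 fold change of 0.10 ± 0.14 (SE). Csrp2 averaged 25.8 ± 15.3 against 21.6 ± 5.95. S100a7a averaged 2.49 ± 2.48 against 4.05 ± 2.91. S100a9, a subunit of calprotectin and a mark of neutrophils and monocytes, was listed at 2.13, 17.8 and 0 in the RORγt+ libraries and at 0 in all 3 RORγt- libraries. S100a3, S100a5, S100a8, S100a14, S100a16, S100b, S100g, S100z, Crip3 and Csrp3 were not analysed here. S100a2 was measured, as given above with the genes near S100a4, but was not in this list.

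Partners and receptors of S100 proteins were read next. Of 40 listed symbols, 31 were measured (32 rows, since 2 gene identifiers carry the symbol Septin2). The 40 include Sept2, an older symbol of Septin2, which is counted among those not measured. Limma called 0, and 5 rows had an unadjusted p under 0.05. Their median log2 fold change was 0.056. Myh9, the non-muscle myosin heavy chain that S100a4 binds, was the most abundant, with a log2 fold change of -0.27 ± 0.15 (SE, adjusted p = 0.599). Ahnak, the giant scaffold that joins the S100a10 and annexin A2 complex, stood at 12801, 15463 and 8083 normalized counts in RORγt+ libraries and 5613, 7127 and 8138 in RORγt- libraries, so the groups overlapped (0.77 ± 0.25, adjusted p = 0.332). Anxa6 was at 0.48 ± 0.15 (adjusted p = 0.29) and the tropomyosin Tpm3 at -0.077 ± 0.16 (adjusted p = 0.928).

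The following partners were picked with their values in view, for their known ties to members. Anxa2, whose protein holds S100a10, stood at 536, 665 and 705 normalized counts in RORγt+ libraries and 493, 603 and 496 in RORγt- libraries, which overlapped (0.26 ± 0.17, SE, adjusted p = 0.663). Anxa1, a partner of S100a11, was at 123, 169 and 61.1 against 3.69, 14.9 and 10.03, a log2 fold change of 3.55 ± 0.57 that did not pass (adjusted p = 0.0546), and Lmna was at 192, 308 and 227 against 60.2, 93.4 and 63.3 (1.73 ± 0.27, adjusted p = 0.0514). Without RORγt+ replicate 3 Anxa1 was called. Cacybp, the S100a6-binding protein, was at -0.37 ± 0.22 (adjusted p = 0.639). Ager, the receptor for extracellular S100 proteins, averaged 39.9 normalized counts over all libraries (0.43 ± 0.42, adjusted p = 0.801).

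**Figure D4:**
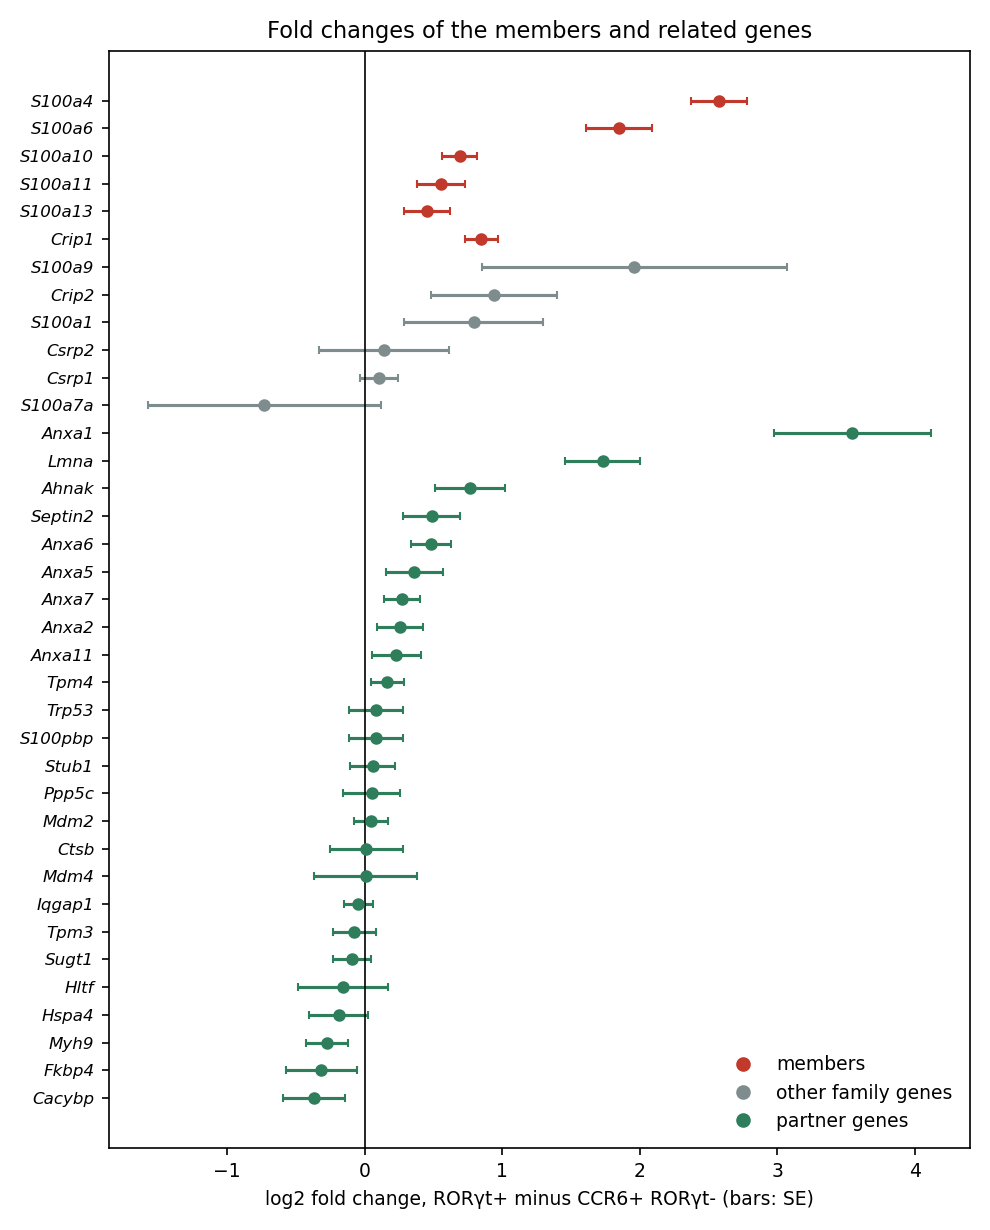
Log2 fold change (RORγt+ minus CCR6+ RORγt-), with SE as bars, of the members (red), the other listed and measured family genes (grey, without S100a2) and partner genes (green). The partner genes shown are those with a mean of at least 500 normalized counts, and Anxa1 and Lmna. Members lie between 0.45 and 2.57, and partners on both sides of 0, from Cacybp at -0.37 through Anxa6 at 0.48 and Ahnak at 0.77 to Lmna at 1.73 and Anxa1 at 3.55.

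Genes of other proteins of the EF-hand class were read for comparison. Of 53 listed, 46 were measured (47 rows), and limma called 0, with 7 rows at an unadjusted p under 0.05 and a median log2 fold change of 0.056. Lcp1, which bundles actin, had a log2 fold change of -0.023 ± 0.11 (SE, adjusted p = 0.972), the myosin light chain Myl6 0.11 ± 0.14 (adjusted p = 0.863) and Sdf4, of the secretory pathway, 0.0025 ± 0.12 (adjusted p = 0.998).

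Genes known to be high in effector and memory T cells went both ways, most of them upward. Of 31 such genes besides the members (Ahnak, Anxa1, Anxa2 and Lmna are also in the partner list), 7 rose in RORγt+ Tregs, 0 fell and 24 did not pass limma's threshold, beside 0.32% of all genes called higher. Their median log2 fold change was 0.66, with 24 positive and 7 negative. The list was drawn up with earlier results of these data known, and the 7 called were not tested as a set. The 7 included the galectins Lgals1 (2086, 2492 and 2479 against 1037, 1220 and 1023 normalized counts, adjusted p = 0.0219) and Lgals3 (adjusted p = 0.026), the glutaredoxin Glrx (1303, 1469 and 1734 against 724, 832 and 704, adjusted p = 0.0453) and the integrin Itgae (adjusted p = 0.012). The receptors Ccr2, Il18r1 and Cxcr6 also rose, with log2 fold changes of 3.66, 1.23 and 1.60 (adjusted p = 0.0139, 0.0219 and 0.026). Among the most abundant that did not pass were Lsp1 (0.46 ± 0.11, SE, adjusted p = 0.166), Itgb7 (0.62 ± 0.16, adjusted p = 0.221) and Itga4 (-0.26 ± 0.37, adjusted p = 0.88). The lowest fold changes, named with their values in view, were those of the transcription factor Tbx21, at 30.4, 43.1 and 70.5 against 112, 134 and 83.6 normalized counts without overlap (-1.24 ± 0.36, adjusted p = 0.267), and of the chemokine receptor Cxcr3, at 641, 637 and 1275 against 1382, 1559 and 1150 (-0.75 ± 0.28, adjusted p = 0.399). Cd44, a classic marker of activated T cells, averaged 1481 against 1789, also without overlap (adjusted p = 0.518). With 1 library left out, 0 genes of the list were called in 5 of the 6 cases, and without RORγt+ replicate 3 there were 9 higher and 1 lower (Cxcr3). Of 13 genes typical of naive and central T cells, limma called 0 (4 at an unadjusted p under 0.05), with a median of 0.023. Tcf7 was at -0.22 ± 0.15, S1pr1 at 0.46 ± 0.13 and Satb1 at 0.23 ± 0.15 (SE, adjusted p = 0.671, 0.249 and 0.669).

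Several of these genes are also transcribed in other blood cells, so markers of such cells are given beside them. The 5 measured of 7 γδ T cell and ILC3 markers summed to 178 to 253 normalized counts in RORγt+ libraries and 54.5 to 79.1 in RORγt- libraries. Of these, 5830411N06Rik was called higher (65.0, 49.8 and 123 against 0, 0.62 and 0, adjusted p = 0.00859). Trdc, the δ chain constant gene, stood at 99.8, 89.2 and 109 against 51.5, 61.8 and 71.5, without overlap (adjusted p = 0.354). Kit averaged 22.4 against 3.60 and Cd163l1 5.89 against 0.233, both without overlap (adjusted p = 0.142 and 0.3235). Blk overlapped between the groups (5.80 against 3.82). The median log2 fold change of these γδ T cell and ILC3 markers was 2.3, and 4 had an unadjusted p under 0.05. The 5 measured of 10 monocyte and macrophage markers summed to 150 to 330 against 174 to 261, and none was called. Ms4a6c, the most abundant, was at 158 ± 58.7 against 174 ± 43.7 (SD), and Itgam at 42.2 ± 17.6 against 15.5 ± 2.06 without overlap. Lyz2 stood at 37.05, 81.6 and 9.97 against 4.09, 23.6 and 4.1. Csf1r averaged 7.40 against 2.53 without overlap, and Cd68 15.8 against 16.8. The median log2 fold change of these 5 was 1.29. The 2 measured of 11 neutrophil markers, S100a9 and Csf3r, summed to 2.13 to 24.8 against 1.17 to 3.89. All 6 NK cell markers together came to 92.3 to 112 against 47.6 to 91.3, led by Eomes (42.3 against 36.6) and Klrb1c (27.4 against 28.9). The other NK cell markers were lower and averaged higher in RORγt+ Tregs, though each was at 0 in RORγt+ replicate 3. They were Gzma (20.8 against 4.81), Ncr1 (6.39 against 1.54), Klre1 (3.95 against 0.33) and Klra8 (3.09 against 0.617). The 5 B cell markers came to 229 to 503 against 182 to 349, led by Cd79b (189 against 179) and Pax5 (75.7 against 20.7). The median log2 fold change was 0.897 for the NK cell list and 1.33 for the B cell list, with none called in either. The 4 measured of 7 dendritic cell markers summed to 12.99 to 41.5 against 39.3 to 47.5, with none called, and the 4 CD8 T cell markers to 227 to 233 against 365 to 575, with Ccl5 called lower (adjusted p = 0.0361). No measured marker was listed at 0 in all 6 libraries. The part of such cells in the differences of the members was not tested. The 10 markers for Tregs, which include the general T cell genes Cd4, Cd3d, Cd3e and Cd3g, summed to 55980 to 59350 normalized counts in RORγt+ libraries and 56350 to 58310 in RORγt- libraries, and limma called 0 of their 11 rows (4 at an unadjusted p under 0.05). Within that sum Ikzf2, which encodes Helios, stood at 6358, 6181 and 1435 in RORγt+ libraries and 4784, 6205 and 7969 in RORγt- libraries, lowest in RORγt+ replicate 3. Ikzf4 averaged 887 against 1431 and Cd3g 6727 against 8081, both without overlap (limma adjusted p = 0.212 and 0.402). Other Treg markers were higher in RORγt+ Tregs, also without overlap and without passing. These were Il2ra (8238.7 against 6112.5, adjusted p = 0.349), Foxp3 (11505 against 9963, adjusted p = 0.595) and Ctla4 in the more abundant of its 2 rows (2278.5 against 1613.8, adjusted p = 0.295). The median log2 fold change of the 11 rows was -0.0026.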

How the data were processed

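The authors deposited 1 signal value per gene and library: normalized counts to 2 decimals for 15944 genes, not raw counts. Per the submitters' processing notes, which give neither role nor order, Salmon 1.2.0, DESeq2 and GRCm38 were used; annotation and filters are not stated. From the values, each library had a median ratio of 1.003 to the geometric means, and only 51.3% to 68.8% of low values were within 0.1 of whole reads; whole reads were therefore not rebuilt. Values were analysed as log2(value + 1), unfiltered, with limma 3.58.1 in R 4.3.3 (model on the group, empirical Bayes with trend, two-sided, Benjamini-Hochberg over all genes, adjusted p under 0.05). Fold changes are on that scale, which understates low genes. The file gives no symbol for 1842 genes; a reference gene name table supplied 1789. In simulated data for these groups over 15944 genes, the test found 100 of 100 genes with a 4-fold change. It found 93 of 100 with a 2-fold change, and there were 15 false calls. In the real libraries, Anxa1 (ratio of means 12.3, limma adjusted p = 0.0546) and Lmna (3.35, adjusted p = 0.0514) did not pass. With 1 library left out, limma called 4 to 174 genes. The simulated rates are therefore not taken as the power in these libraries. A gene that did not pass is not shown to be unchanged.

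The members, gene lists and motifs were chosen with earlier results of these data known. Named are all members and measured family genes, in each other list the genes past the threshold and up to 4 further ones by mean (markers: 2), and for each member the 3 genes nearest in profile; others are said to be chosen later. A few genes that this rule names are not reported here. Promoters are RefSeq's (GRCm38.p6), and positions count back from the start of transcription. Alternatives were pseudocounts 0.1 and 5, a mean of at least 10, equal column totals or upper quartiles, array weights, each library left out and a replicate block.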

Additional observations from a re-analysis of the deposited data

How the results depend on the processing

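In all 13 alternatives the 6 members kept a positive log2 fold change, within 1 SD of the value given. Limma called 90 genes in all, 358 with array weights (which gave RORγt+ replicate 3 a weight of 0.199), 4 to 174 with 1 library left out and 1 with the replicate block. Of the members, 3 were called, 0 to 4 with 1 library left out and 0 with the replicate block. Partner genes called rose from 0 to 2 with a pseudocount of 5 (Anxa1 and Lmna), 1 with a mean of at least 10, 2 with equal upper quartiles, 3 with array weights and 0 to 1 with 1 library left out. Array weights also called 1 other EF-hand gene, 15 effector T cell genes (13 higher, and Tbx21 and Cxcr3 lower) and 2 naive T cell genes (S1pr1 higher, Dapl1 lower). The number of effector T cell genes called, 7 as reported, was 0 to 10 with 1 library left out and 0 with the replicate block. With equal upper quartiles Crip1 missed the threshold (adjusted p = 0.0505). Of the genes whose promoter holds the ROR element, 4 were called as reported, 5 with array weights and 0 with the replicate block. A pseudocount of 0.1 or a mean of at least 10 left 3 called, without Il23r. The causes were not tested. Deviations from the group mean correlated at -0.105, -0.022 and -0.184 between libraries of the same replicate number. In these deviations 0 libraries correlated best with their own number, so no sign of pairing by number was seen. With 3 libraries per group, such correlations cannot settle whether libraries of the same number belong together. Planned count-based tests were left out, since the table holds no whole counts.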
